A study of Mus musculus with 4 samples.

Results

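Gata1, Gata2, Klf1, Zfpm1, Gfi1b and Tal1, the genes of 6 transcription factors and cofactors of the erythroid and megakaryocyte lineages, were followed in blood progenitors of leukemic and control mice. They were chosen by name, and all 6 were among the 13978 gene symbols of the deposited matrix. In the B-ALL environment, CD45.1 wild-type mice had been injected through the tail vein with 150000 primary tumor cells, taken from a lymph node of a leukemic CD45.2 mouse that was Ebf1+/- Pax5+/-. B-ALL is B-cell acute lymphoblastic leukemia, and 1 donor mouse is named as the source of the leukemia. In the PBS control, CD45.1 wild-type mice had received phosphate-buffered saline. After 3 weeks, CD45.1+ CD45.2- host cells were sorted from marrow by the presence of KIT, which binds stem cell factor, and the absence of lineage markers. They were measured with a droplet kit that counts the 3' ends of transcripts as unique molecular identifiers (UMIs). Although 2 samples are named for either group, no cell shows which of them it came from, and each group was therefore treated as 1 sample. The spread between mice is unknown, no test was possible, and every interval given is a 95% interval for counting error only.

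GATA2 maintains stem and early progenitor cells, mast cells and early megakaryocyte progenitors. GATA1 takes over many of its binding sites as erythroid cells, megakaryocytes, mast cells and eosinophils mature, and it lowers transcription of Gata2, a change known as the GATA switch. Both bind the sequence GATA together with FOG1, the cofactor that Zfpm1 encodes. TAL1 binds E-box sequences in a complex with LMO2, LDB1 and GATA factors. GFI1B is a repressor that recruits histone demethylases and deacetylases and is needed for red cells and platelets. KLF1 binds CACCC sequences of globin and other red cell genes and favours the erythroid over the megakaryocyte fate.

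Because these factors are known to act on each other's genes, the 250 bases upstream of each gene's start were read from RefSeq sequences of GRCm38.p6, the build that corresponds to the mm10 named in the submitters' processing notes. The GATA motif was searched on both strands as AGATAA, or with T in place of its first base, G in place of its last base, or both. Windows of Klf1, Gfi1b and Tal1 held 1 match each. Those of Gata1, both starts of Gata2, Zfpm1 and the other start of Tal1 held none of these letters, while 26.54% of 32851 RefSeq windows of the same length held a match. The 3 windows with a match are shown 5' to 3' on the gene's strand, with the match in capitals. They lie at chr8:84901732-84901981 (+) for Klf1, chr2:28621983-28622232 (-) for Gfi1b and chr4:115056176-115056425 (+) for the more upstream Tal1 start.
Klf1: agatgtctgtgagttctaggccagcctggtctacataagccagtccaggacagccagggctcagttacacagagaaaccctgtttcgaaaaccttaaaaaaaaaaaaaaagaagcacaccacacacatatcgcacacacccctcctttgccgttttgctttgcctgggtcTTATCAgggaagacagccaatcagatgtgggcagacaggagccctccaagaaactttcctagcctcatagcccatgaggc
Gfi1b: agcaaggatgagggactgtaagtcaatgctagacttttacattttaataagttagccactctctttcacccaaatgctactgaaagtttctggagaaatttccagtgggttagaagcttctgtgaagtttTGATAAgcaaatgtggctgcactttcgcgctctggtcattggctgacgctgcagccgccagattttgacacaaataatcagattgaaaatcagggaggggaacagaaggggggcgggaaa
Tal1: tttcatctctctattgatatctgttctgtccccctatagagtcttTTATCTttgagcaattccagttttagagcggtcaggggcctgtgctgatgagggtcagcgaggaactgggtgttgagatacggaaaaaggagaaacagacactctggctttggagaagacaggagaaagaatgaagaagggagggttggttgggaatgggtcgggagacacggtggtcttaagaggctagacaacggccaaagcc
The match began 80 bases before the start of Klf1, 120 before that of Gfi1b and 205 before that of Tal1. The CACCC motif, searched as CCNCNCCC on both strands and held by 45.93% of the windows, had 3 matches upstream of Gata1, 1 and 6 upstream of the Gata2 starts, 4 upstream of Zfpm1, 4 upstream of the other Tal1 start and 2 upstream of Gfi1b. The windows shown for Klf1 and Tal1 held none of its letters. Matches were counted even where they overlapped. Most of the 6 at the Gata2 start began at neighbouring bases, 198 to 202 before it, and some at the other Tal1 start also overlapped. A match describes letters in a window and not binding, and counts from the 3' end do not tell which start was used.

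In the GENCODE annotation of GRCm38 the genes lie apart. Gata1 (ENSMUSG00000031162.14) lies at chrX:7959260-7978071 on the minus strand, and Gata2 (ENSMUSG00000015053.14) at chr6:88193891-88207032 on the plus strand. Klf1 (ENSMUSG00000054191.8) at chr8:84901928-84905291 and Zfpm1 (ENSMUSG00000049577.15) at chr8:122282141-122337251 are both on the plus strand of chromosome 8. Gfi1b (ENSMUSG00000026815.14) lies at chr2:28609450-28621982 on the minus strand and Tal1 (ENSMUSG00000028717.12) at chr4:115056426-115071755 on the plus strand. Zfpm1 overlaps the annotated gene Gm20388 on the same strand. Gm20388 is not in the deposited matrix, so whether any UMIs were assigned to it cannot be seen, and the level of Zfpm1 is less certain than the others. None of the other 5 overlaps an annotated gene.

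Each group held 5882 cells. UMIs totalled 76059014 in the B-ALL environment (median per cell 10458) and 68391214 in the PBS control (median 10189). Both groups shared 18 cell barcodes. Kit, the gene of the sorted receptor, was lower in the B-ALL environment, at 208.5 UMIs per 1000000 (CPM) against 365.3 in the PBS control, and Ptprc, which encodes CD45, was at 178 against 146 CPM. The 7 measured marker genes of mature red cells summed to 761 against 84.8 CPM, and those of B cells to 452 against 133 CPM. Globin genes or Igkc exceeded 1% of UMIs in only a few cells, and 5867 B-ALL environment and 5879 PBS control cells lay under that limit. No gene of any marker list that is in the matrix was at 0 in either group.

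Progenitor types were found by clustering the authors' cell map, and a cluster was named from marker genes with the 6 factors left out. Of 14 clusters, 11 took a name. HSC-like cells, with markers of hematopoietic stem cells, were 18.9% of B-ALL environment cells (1113) and 5.85% of PBS control cells (344). Megakaryocyte-like cells were 15.5% (913) and 8.19% (482), and multipotent progenitor-like cells 12.5% (733) and 7.91% (465). Erythroid-like cells were 3.30% (194) of B-ALL environment cells and 14.1% (829) of PBS control cells. Early erythroid-megakaryocyte-like cells, the class with St8sia6, Mfsd2b and Apoe among its leading genes, were 8.19% (482) and 14.2% (837). The basophil and mast cell-like class made up 2.70% (159) and 3.89% (229). Shares describe cells that passed the KIT sort, and genes that name these classes also differ between the groups. Genes of the HSC list had a larger sum in the B-ALL environment in every class with at least 30 cells of both groups. Over all cells the list stood at 3082 CPM there and 580 CPM in the PBS control. Neutrophil progenitor-like cells had 1257 and 219 CPM of it, and monocyte progenitor-like cells 1256 and 216 CPM. A larger HSC sum within a class is thus not particular to that class.

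Each factor was highest in the erythroid, megakaryocyte or early erythroid-megakaryocyte class, or for Gata2 in the basophil and mast cell class, and each had its own order. Gata1 was highest in erythroid-like cells, at 155.5 CPM in the B-ALL environment and 168 in the PBS control. Its level in early erythroid-megakaryocyte-like cells, at 143.5 and 156 CPM, was within counting error of that. Basophil and mast cell-like cells had 128 and 91.1 CPM of Gata1. Megakaryocyte-like cells had 83.0 and 106 CPM of Gata1, and HSC-like cells 6.23 and 8.89 CPM. Gata1 was at 1.53 to 4.20 CPM in neutrophil, monocyte, early granulocyte-monocyte and lymphoid-primed classes of the B-ALL environment, and at 2.69 to 4.76 CPM in those of the PBS control, classes that should hold little of it.

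Gata2 was highest in basophil and mast cell-like cells, at 939 CPM in the B-ALL environment and 683 in the PBS control, and next in early erythroid-megakaryocyte-like cells, at 512 and 543 CPM. Both groups then had it in megakaryocyte-like cells, at 242 and 309.5 CPM. HSC-like cells, with 159 and 172 CPM, came above multipotent progenitor-like cells, with 119 and 96.2 CPM. Among classes with at least 30 cells of both groups, Gata2 was lowest in monocyte progenitor-like cells, at 11.4 and 20.1 CPM. In the PBS control that level was within counting error of unnamed cluster 8, a granulocyte-monocyte group led by Ly6c2 and Elane. The place of erythroid-like cells in the order of Gata2 differed between the groups. They had 239.5 CPM in the B-ALL environment, level with megakaryocyte-like cells, and 152 CPM in the PBS control, close to the HSC-like class.

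Klf1 had the steepest order. Erythroid-like cells held 198 CPM in the B-ALL environment and 247 in the PBS control, early erythroid-megakaryocyte-like cells 68.1 and 144, basophil and mast cell-like cells 49.7 and 48.2, and megakaryocyte-like cells 14.6 and 24.7 CPM. In the HSC-like, multipotent, early granulocyte-monocyte, neutrophil, monocyte and lymphoid-primed classes it was at 0.893 to 2.26 CPM in the B-ALL environment and 2.38 to 3.86 CPM in the PBS control. Intervals of neighbours among these 6 classes overlapped, and this low level was taken as background rather than expression. It was itself lower in the B-ALL environment beyond counting error in neutrophil (log2 fold -1.58), monocyte (-1.75), lymphoid-primed (-1.79) and multipotent (-1.67) classes. In the HSC-like and early granulocyte-monocyte classes it was within counting error. A lower Klf1 in the B-ALL environment is thus not particular to classes that express it.

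Zfpm1, Gfi1b and Tal1 reached further into the stem cell classes. Zfpm1 was at 523 CPM in early erythroid-megakaryocyte-like cells and 498 in megakaryocyte-like cells of the B-ALL environment, against 390.4 and 595 CPM in those of the PBS control. HSC-like cells held 190.3 and 167 CPM of Zfpm1. Gfi1b was highest in erythroid-like cells, at 121 and 145 CPM, where the B-ALL environment's megakaryocyte-like cells, at 112 CPM, lay within counting error of that level. Tal1 had the flattest order, with 148 and 156 CPM in erythroid-like, 118 and 107 CPM in HSC-like and 25.7 and 27.7 CPM in monocyte progenitor-like cells.

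**Figure D1:**
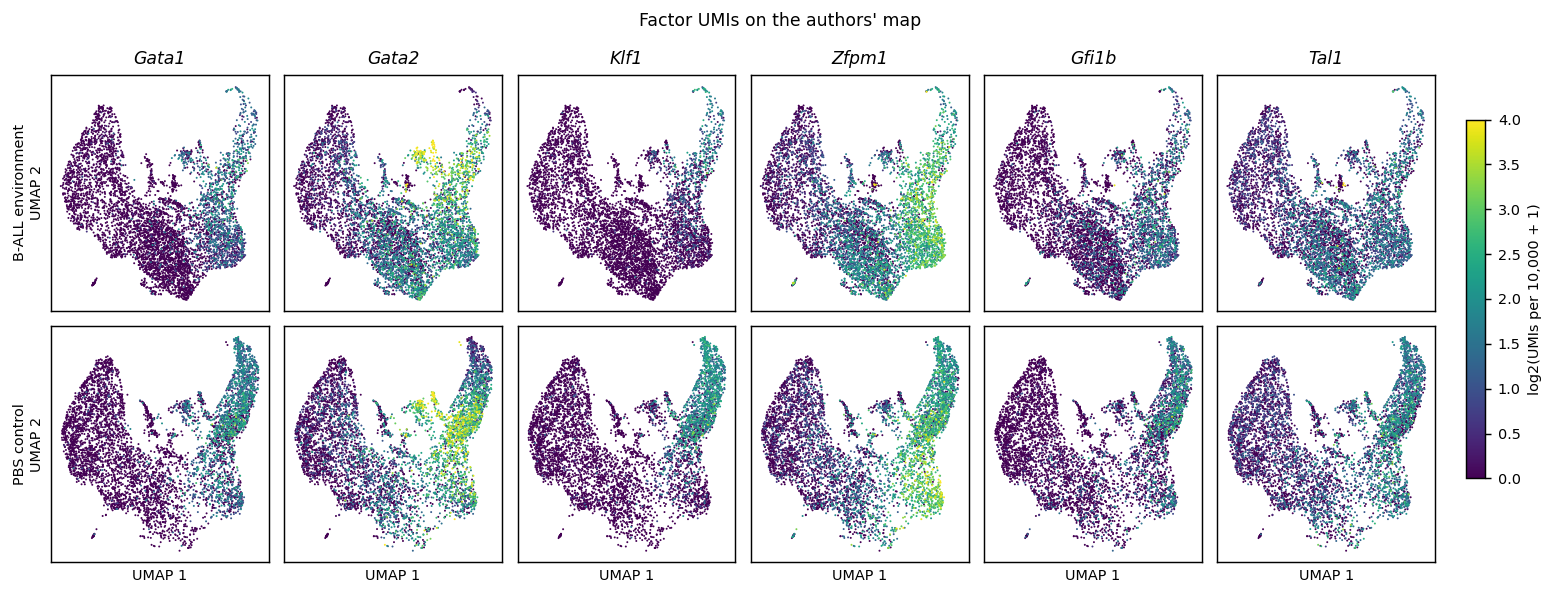
UMIs of each factor per cell on the authors' map (UMAP 1 and UMAP 2, no unit), with the B-ALL environment in the upper row and the PBS control in the lower row. Colour is log2 of UMIs per 10000 plus 1, and the arm of cells at the upper right, where Klf1 is high, holds few cells of the B-ALL environment (194 erythroid-like cells, against 829 in the PBS control).

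**Figure D2:**
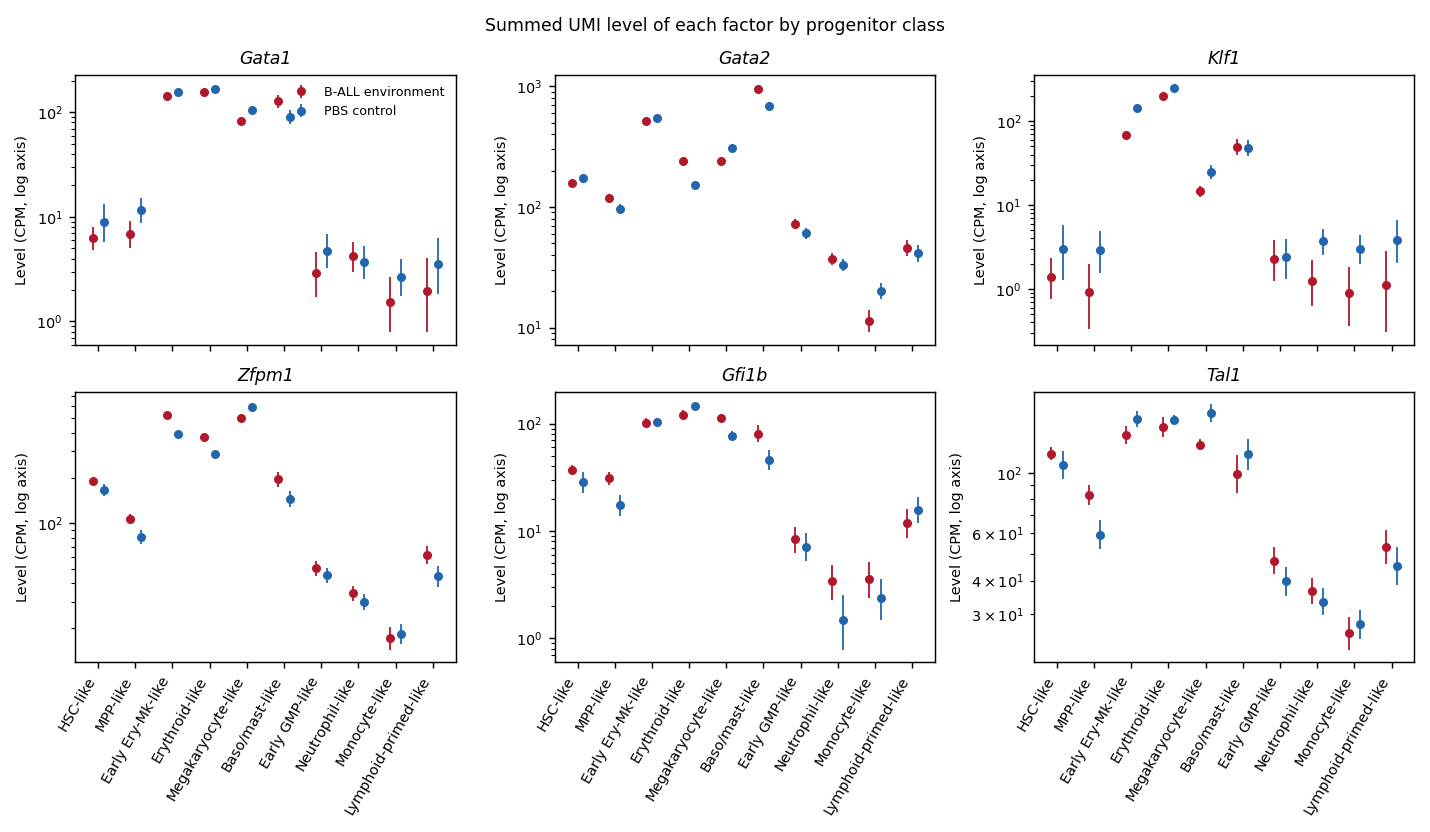
Level of each factor in 10 named classes, as CPM on a log axis, with the B-ALL environment in red left of the PBS control in blue. Points are sums over all cells of a class and bars are exact 95% Poisson intervals; HSC is hematopoietic stem cell, MPP multipotent progenitor, Ery-Mk erythroid-megakaryocyte, and GMP granulocyte-monocyte progenitor. Klf1 spans from 198 and 247 CPM in erythroid-like cells to 0.893 and 3.01 CPM in monocyte progenitor-like cells.

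Over all sorted cells, Klf1 and Gata1 were lower in the B-ALL environment, Zfpm1 and Gata2 were slightly higher, and Gfi1b and Tal1 were within counting error. Klf1 had 17.7 CPM (1364 UMIs) in the B-ALL environment and 63.5 CPM (4292 UMIs) in the PBS control, a log2 fold of -1.84 (-1.93 to -1.75). Gata1 had 36.5 and 57.9 CPM (2811 and 3911 UMIs), a log2 fold of -0.67 (-0.74 to -0.59). These 2 factors passed a fold of 1.5 downwards, as 2.79% of the 8781 genes that averaged 10 CPM or more did, and none of the 6 passed it upwards, as 3.94% of those genes did. Zfpm1, the FOG1 gene, had 197 and 160.5 CPM, a log2 fold of 0.29 (0.26 to 0.33), and Gata2 157 and 148 CPM, a log2 fold of 0.08 (0.04 to 0.12). Gfi1b had 45.4 and 47.4 CPM, at -0.06 (-0.13 to 0.01), and Tal1 82.4 and 85.2 CPM, at -0.05 (-0.10 to 0.00). The median log2 fold was -0.06 for the 6 factors and -0.02 for all 8781 genes.

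The classes that carried these UMIs differed. Erythroid-like cells held 51.4% of Klf1 UMIs in the B-ALL environment and 72.7% in the PBS control, and 19.6% and 54.3% of Gata1 UMIs. Megakaryocyte-like cells held 40.1% of Gata1 UMIs in the B-ALL environment and 11.6% in the PBS control, and 43.8% and 10.3% of those of Gfi1b. With every class given the mean of its shares in both groups, Klf1 had 32.1 and 45.8 CPM, a log2 fold of -0.51 (-0.61 to -0.42), and Gata1 45.9 and 48.5 CPM, a log2 fold of -0.08 (-0.16 to -0.00). Gfi1b, which lay level over all cells, was then higher, with 47.7 and 40.6 CPM and a log2 fold of 0.23 (0.16 to 0.31). Zfpm1 stood at 0.26, Gata2 at 0.14 and Tal1 at -0.02. None of the 6 passed a fold of 1.5 at equal class shares, as 2.07% of 8773 genes did upwards and 1.74% downwards. With classes set cell by cell from marker UMIs in place of clusters, the value for Gata1 turned to 0.13 (0.04 to 0.23) and that for Klf1 was -0.30 (-0.42 to -0.19). Cells that reached no list, 1270 in the B-ALL environment and 1274 in the PBS control, formed a class there, with Gata1 at 41.95 and 17.24 CPM.

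**Figure D3:**
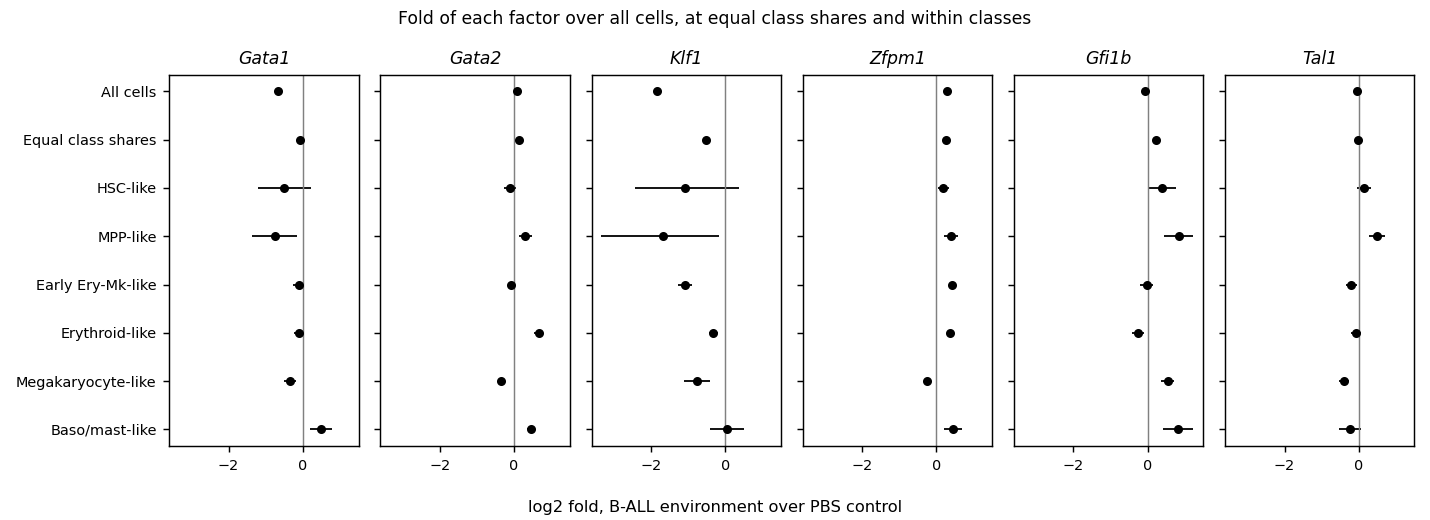
Log2 fold of each factor, B-ALL environment over PBS control, over all cells, at equal class shares and within 6 classes. Points are folds of summed UMIs with 95% intervals for counting error, and the grey line is no difference. Klf1 moves from -1.84 over all cells to -0.51 at equal class shares, and Gata1 from -0.67 to -0.08.

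Within the erythroid branch, Klf1 was lower in the B-ALL environment and Gata1 was not beyond counting error. In early erythroid-megakaryocyte-like cells Klf1 had 68.1 CPM in the B-ALL environment and 144 in the PBS control, a log2 fold of -1.08 (-1.27 to -0.89). It was the only one of the 6 past a fold of 1.5 there, as 6.88% of 8825 genes were downwards and 7.31% upwards. Zfpm1 was higher, with 523 and 390.4 CPM and a log2 fold of 0.42 (0.34 to 0.51), and Tal1 was lower, at -0.20 (-0.35 to -0.05). Gata1 at -0.12 (-0.27 to 0.03) and Gfi1b at -0.02 (-0.20 to 0.16) were within counting error. Marker levels moved with these values. The markers that name the class summed to 3668 CPM in the B-ALL environment and 7365 in the PBS control, and erythroid markers to 1847 and 4286 CPM. Megakaryocyte markers summed to 1215 and 694 CPM and HSC markers to 2645 and 1012 CPM. The part of all these markers in the result was not tested. In 2 finer clusters that lay mostly in this class, Klf1 had 112 and 187 CPM (249 and 720 cells) and 44.0 and 88.3 CPM (290 and 274 cells). The log2 folds of Gfi1b in them had opposite signs, at -0.38 and 0.96, and so did those of Gata2, at 0.20 and -0.19. The cell-by-cell classes named 183 B-ALL environment and 974 PBS control cells of this type. With them the log2 fold of Klf1 was -0.30 (-0.53 to -0.08), that of Gata2 0.24, and that of Tal1 within counting error.

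In erythroid-like cells Gata2 stood out upwards, with 239.5 CPM in the B-ALL environment and 152 in the PBS control, a log2 fold of 0.66 (0.54 to 0.78). It alone of the 6 passed a fold of 1.5, as 5.33% of 8192 genes did upwards, and 4.43% did downwards. Zfpm1 was higher, at 374 and 289 CPM (log2 fold 0.37, 0.28 to 0.46). Klf1 was lower, at 198 and 247 CPM (log2 fold -0.32, -0.44 to -0.20), and Gfi1b at 121 and 145 CPM (-0.26, -0.42 to -0.11). Gata1 had 155.5 and 168 CPM, a log2 fold of -0.11 (-0.25 to 0.02), and Tal1 was at -0.08 (-0.22 to 0.06). In this class erythroid markers summed to 7199 CPM in the B-ALL environment and 10680 in the PBS control, HSC markers to 1436 and 258 CPM, and mature red cell markers to 3769 and 70.4 CPM, and their part in the result was not tested. With the cell-by-cell classes, which named 127 B-ALL environment and 800 PBS control cells erythroid-like, the log2 fold of Gata2 was 0.22 (0.07 to 0.37) and that of Gfi1b was within counting error.

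Cells of these 2 classes were therefore also set side by side within the same ranges of erythroid marker level. They were divided into 5 bins of equal total number by the summed share of 26 erythroid marker genes, so that each bin held cells of the same marker range from both groups. The bins from low to high held 326, 186, 85, 44 and 35 cells of the B-ALL environment, against 143, 282, 383, 424 and 434 cells of the PBS control. Within them the erythroid markers themselves were still lower in the B-ALL environment, at log2 folds of -0.17, -0.16, -0.07, -0.05 and -0.05. Early erythroid-megakaryocyte markers were at 3243 CPM in the B-ALL environment and 5800 in the PBS control in the lowest bin. In the highest they were at 5921 and 8612 CPM, and the part of these markers was not tested. In the lowest bin Gata2 had 480.0 CPM in the B-ALL environment and 504 in the PBS control, a log2 fold of -0.07 (-0.21 to 0.08). In the next it had 519.5 and 624 CPM, at -0.27 (-0.39 to -0.14), and in the third 322 and 438 CPM, at -0.45 (-0.61 to -0.28). Bin 4 had 208 and 249 CPM, at -0.26 (-0.50 to -0.03), and the highest 26.1 and 102 CPM, at -1.97 (-2.62 to -1.38). Gata2 was thus lower beyond counting error in 4 of the 5 bins, while it was higher in the erythroid-like class as a whole, and cells of the B-ALL environment lay mostly in the lower bins. Over all sorted cells at the same limits, whatever their class, Gata2 in the lowest bin had 139 and 99.7 CPM, a log2 fold of 0.48.

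The highest bin rested on 24 Gata2 UMIs from 35 B-ALL environment cells. Mature red cell markers in it were at 14320 CPM in the B-ALL environment, against 68.8 in the PBS control, and median UMIs per cell were 26540 and 16058.5. Without cells over the limit for globin genes or Igkc, which left 28 of the 35, the log2 fold of Gata2 was -1.87 (-2.53 to -1.29), and mature red cell markers were still at 636 against 68.8 CPM. The erythroid list holds Ermap, Tspo2, Sphk1, Atp1b2 and Trib2, known from earlier results to be among the genes with the lowest folds. With these left out of it, Gata2 had a log2 fold of 0.01 (-0.21 to 0.22) in bin 4 and -1.10 (-1.54 to -0.68) in the highest.

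Among cells of these 2 classes Klf1 was lower in the lowest 2 bins of the erythroid path and level in the upper 3. In the lowest bin Klf1 had 54.5 CPM in the B-ALL environment and 86.2 in the PBS control, a log2 fold of -0.66 (-1.03 to -0.28), and in the next 104 and 133 CPM, at -0.36 (-0.64 to -0.09). In the upper 3 bins its log2 folds were -0.10, -0.07 and -0.03, each within counting error, and it reached 267 and 273 CPM in the highest. Over all sorted cells at the same limits, whatever their class, Klf1 was at -0.09 (-0.30 to 0.11) in the lowest bin. In the next it was at -0.97 (-1.20 to -0.73). Gata1 changed little along the path in either group, at 128 to 168 CPM in the B-ALL environment and 135 to 173 CPM in the PBS control, and was within counting error in every bin. Gfi1b was higher in the lowest 2 bins, with log2 folds of 0.64 (0.23 to 1.07) and 0.46 (0.17 to 0.75), and lower in the highest, at -0.37 (-0.66 to -0.10). With the shorter erythroid list Gfi1b in the lowest bin was at 0.34 (-0.02 to 0.72), within counting error. Zfpm1 was higher in the lowest 3 bins, at 0.16 to 0.23. Tal1 was lower in bins 2 and 4, at -0.41 (-0.66 to -0.16) and -0.37 (-0.68 to -0.07). HSC markers differed most in the lowest bin, at 2599 CPM in the B-ALL environment and 791 in the PBS control, and their part in these values was not tested.

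**Figure D4:**
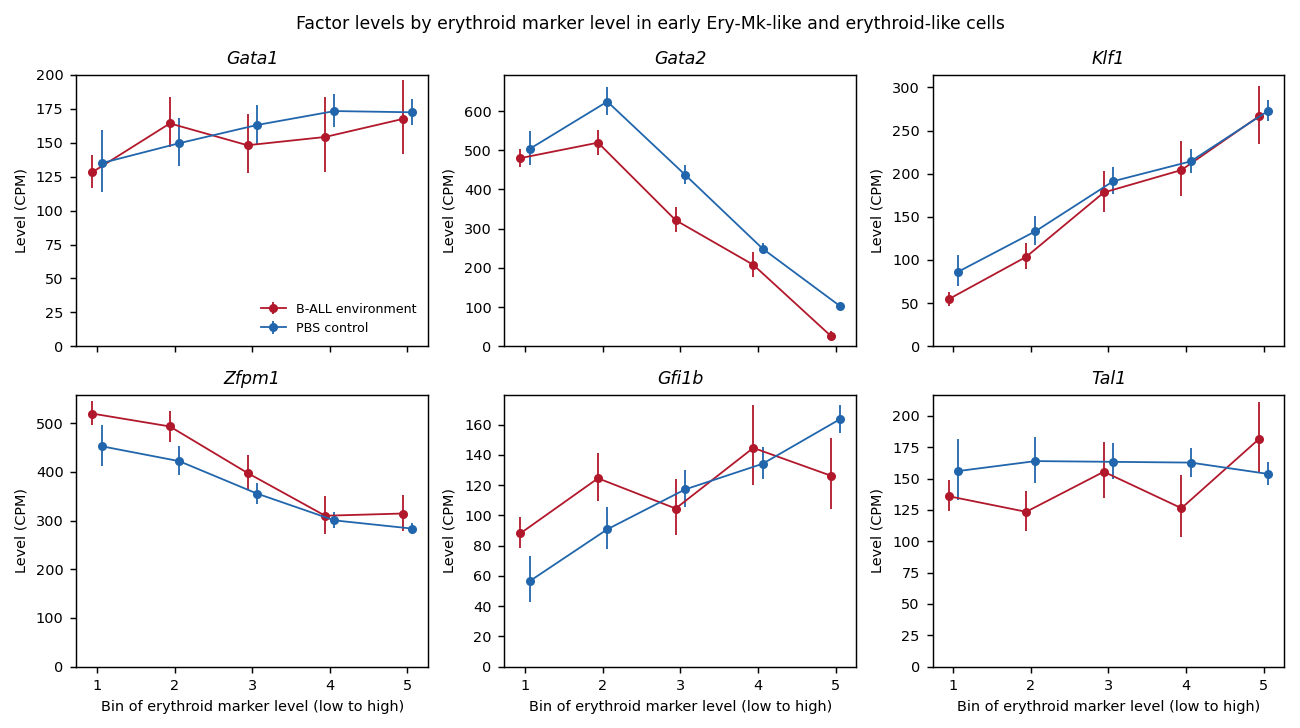
Level of each factor in CPM against 5 bins of rising erythroid marker level, in early erythroid-megakaryocyte-like (Ery-Mk) and erythroid-like cells of the B-ALL environment (red) and the PBS control (blue). Bars are 95% Poisson intervals. Gata2 falls from bin 2 onwards, to 26.1 and 102 CPM, and lies lower in the B-ALL environment in bins 2 to 5, while Klf1 climbs to 267 and 273 CPM. The highest bin rests on 24 Gata2 UMIs of the B-ALL environment, and with a shorter erythroid list Gata2 is level in bin 4.

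In megakaryocyte-like cells Gfi1b was higher and the other 5 factors lower in the B-ALL environment. Unnamed cluster 10 had the same signs, with Zfpm1 and Tal1 within counting error there. Gfi1b, which is needed for platelet formation, had 112 CPM in the B-ALL environment and 77.0 in the PBS control, a log2 fold of 0.55 (0.37 to 0.72). Klf1 had 14.6 and 24.7 CPM, a log2 fold of -0.76 (-1.11 to -0.41), and alone passed a fold of 1.5, as 5.67% of 8719 genes did downwards and 4.56% upwards. Klf1 was also lower in some classes where its level was taken as background. Tal1 was at -0.39 (-0.52 to -0.27), Gata2 at -0.35 (-0.45 to -0.26), Gata1 at -0.35 (-0.51 to -0.19) and Zfpm1 at -0.26 (-0.32 to -0.19). Median UMIs per cell were 13026 in the B-ALL environment and 7948 in the PBS control, megakaryocyte markers summed to 3286 and 6521 CPM, and HSC markers to 1933 and 864 CPM, and their part in these values was not tested. Of 2 finer clusters that lay mostly in this class, the 1 led by Cavin2 and Timp3 (583 and 273 cells) had Gfi1b at 0.88 (0.62 to 1.15). The other, led by Pf4 (308 and 197 cells), had Gfi1b at 0.19 (-0.04 to 0.43), and Gata1 and Klf1 were also within counting error there. With the cell-by-cell classes Gfi1b was at 0.56 (0.38 to 0.75), while Klf1, at -0.01, and Gata1, at -0.15, were within counting error.

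Megakaryocyte-like cells were likewise divided into 4 bins by the summed share of 20 megakaryocyte markers. Gfi1b was higher in each, with 90.6 against 41.9 CPM in the lowest bin (log2 fold 1.11, 0.55 to 1.74), and log2 folds of 0.78, 0.98 and 0.27 in the others from low to high. The highest bin had 126 and 105 CPM, so the groups were closest where megakaryocyte markers were highest, although those markers were then at 8208 and 11680 CPM. Other markers moved with the bins: in the lowest, HSC markers were at 2937 CPM in the B-ALL environment and 711 in the PBS control, and early erythroid-megakaryocyte markers at 1675 and 4425 CPM, and their part in these values was not tested. Gata2 was lower in each bin, at -0.55, -0.61, -0.56 and -0.32. Klf1 was lower beyond counting error in the lowest 2 bins, at -1.79 (-2.49 to -1.06) and -1.21 (-1.83 to -0.56).

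In the multipotent class Gfi1b was again higher, while in HSC-like cells it barely passed counting error. Multipotent progenitor-like cells had 31.1 CPM of Gfi1b in the B-ALL environment and 17.4 in the PBS control, a log2 fold of 0.84 (0.45 to 1.23), the only 1 of 4 factors with at least 10 CPM past a fold of 1.5, as 4.41% of 8820 genes were upwards and 2.87% downwards. Tal1 at 0.48 (0.27 to 0.70), Zfpm1 at 0.39 (0.21 to 0.58) and Gata2 at 0.31 (0.13 to 0.48) were also higher there. HSC markers summed to 4909 CPM in the B-ALL environment and 1031 in the PBS control in this class, and their part was not tested. Gata1 rested on 45 and 52 UMIs, with a log2 fold of -0.76 (-1.37 to -0.16). The cell-by-cell classes named only 20 and 99 cells multipotent progenitor-like, too few to compare. In HSC-like cells 4 of the 6 factors averaged 10 CPM or more, and none passed a fold of 1.5, as 6.11% of 9381 genes did upwards and 4.24% downwards. Gfi1b was at 0.38 (0.02 to 0.76) and Zfpm1 at 0.19 (0.04 to 0.34), Gata2 at -0.11 (-0.26 to 0.04) and Tal1 at 0.14 (-0.05 to 0.33). In 2 finer clusters that lay mostly in this class, Gfi1b was within counting error, at 0.40 (-0.06 to 0.88) and 0.08 (-0.50 to 0.69). The cell-by-cell classes turned Gfi1b to -0.69 and Zfpm1 to -0.44 in HSC-like cells, of which they named 2177 in the B-ALL environment and only 77 in the PBS control. HSC markers summed to 8201 and 2152 CPM in the clustered class, and their part was not tested.

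Basophil and mast cell-like cells, which depend on GATA2, had most factors higher. Gata2 had 939 CPM in the B-ALL environment and 683 in the PBS control, a log2 fold of 0.46 (0.35 to 0.57). Gfi1b had 80.9 and 46.1 CPM, at 0.81 (0.40 to 1.23), and passed a fold of 1.5, as 6.73% of 8761 genes did upwards and 4.85% downwards. Gata1 at 0.49 (0.19 to 0.80) and Zfpm1 at 0.44 (0.20 to 0.68) were higher, and Klf1 at 0.04 and Tal1 at -0.24 were within counting error. The class held 159 and 229 cells. HSC markers in it summed to 4278 CPM in the B-ALL environment and 1878 in the PBS control, and early erythroid-megakaryocyte markers to 3563 and 4659 CPM, and their part was not tested. The cell-by-cell classes gave 0.45 for Gata2 and 0.96 for Gfi1b.

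In monocyte progenitor-like cells Gata2 had 11.4 and 20.1 CPM, a log2 fold of -0.83 (-1.21 to -0.45), the 1 factor of 3 tested to pass a fold of 1.5, as 2.40% of 8278 genes did downwards and 1.45% upwards. Zfpm1 was higher in lymphoid-primed progenitor-like cells, at 61.7 and 44.5 CPM (log2 fold 0.47, 0.16 to 0.78). Unnamed cluster 10, led by mitotic genes such as Ccnb2 and Cenpa, held 301 and 173 cells. In it Klf1 had 10 UMIs in the B-ALL environment and 34 in the PBS control (log2 fold -2.65, -3.83 to -1.60), Gata1 was at -1.03 (-1.52 to -0.54) and Gfi1b at 0.63 (0.19 to 1.09), 3 of 6 factors past a fold of 1.5, as 7.83% of 8794 genes were upwards and 6.46% downwards. HSC markers in cluster 10 summed to 5260 and 1035 CPM, and their part was not tested. A lower Klf1 was also seen in classes where its level was taken as background. In unnamed cluster 12, led by Igkc and globin genes (134 and 169 cells), Gata1 had 2 UMIs in the B-ALL environment and 21 in the PBS control (log2 fold -3.66, -6.80 to -1.63), and Tal1 108 and 62.6 CPM (0.79, 0.30 to 1.29). These were 2 of 5 factors tested there, where 22.4% of 9177 genes were higher and 23.0% lower, and mature red cell markers were at 29720 and 1429 CPM. In unnamed cluster 8 Zfpm1 had 28.9 and 17.0 CPM (0.76, 0.41 to 1.12), 1 of 3 factors tested, as 2.14% of 8031 genes were upwards and 2.61% downwards.

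The ratio of Gata2 to Gata1 UMIs was taken in each class as a description, and not as a measure of how far the GATA switch had gone. Over all cells it was 4.29 (4.12 to 4.47) in the B-ALL environment and 2.55 (2.46 to 2.65) in the PBS control. Erythroid-like cells had the lowest ratio in both groups, 1.54 (1.38 to 1.72) in the B-ALL environment and 0.901 (0.847 to 0.959) in the PBS control. Within ranges of erythroid marker level Gata2 was instead lower in the B-ALL environment in bins 2 to 5, and Gata1 was within counting error in every bin. With the shorter erythroid list Gata2 was level in bin 4, and the highest bin rested on 24 Gata2 UMIs of the B-ALL environment. The ratios differed by less than counting error in early erythroid-megakaryocyte-like cells, at 3.57 (3.27 to 3.90) and 3.49 (3.24 to 3.77), in megakaryocyte-like cells, at 2.92 (2.73 to 3.13) and 2.93 (2.63 to 3.27), and in basophil and mast cell-like cells, at 7.34 and 7.50. Multipotent progenitor-like cells had 17.3 (12.8 to 24.0) and 8.29 (6.21 to 11.3), on few Gata1 UMIs. With the cell-by-cell classes, erythroid-like cells of the B-ALL environment had a ratio of 1.11 (0.969 to 1.27). The ratio of Gfi1b to Gata1 in megakaryocyte-like cells was 1.36 (1.25 to 1.47) in the B-ALL environment and 0.729 (0.631 to 0.842) in the PBS control. That of Klf1 to Gata1 in early erythroid-megakaryocyte-like cells was 0.475 (0.414 to 0.544) and 0.925 (0.840 to 1.02).

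**Figure D5:**
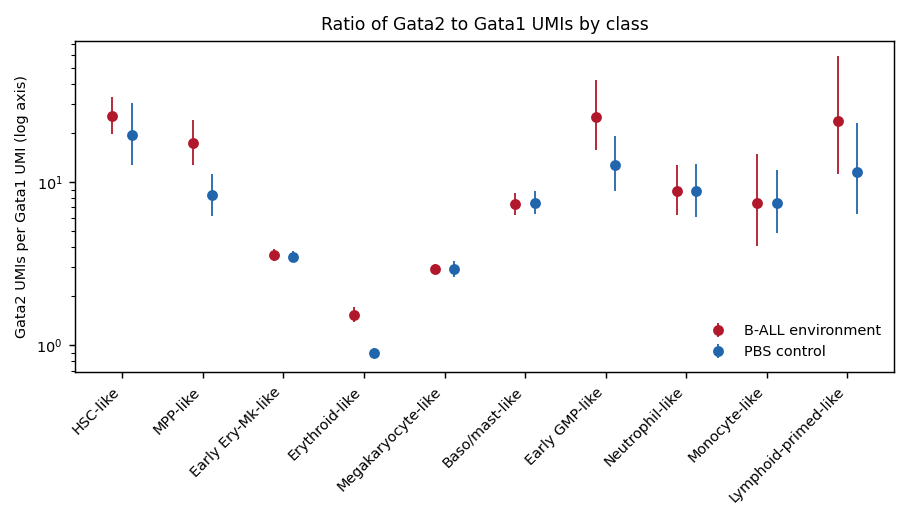
Gata2 UMIs per Gata1 UMI in 10 named classes on a log axis, B-ALL environment (red) left of PBS control (blue), with exact 95% intervals. Erythroid-like cells have the lowest ratio, 1.54 in the B-ALL environment and 0.901 in the PBS control.

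Detection in single cells was compared after each cell was thinned to 3000 UMIs, which left out 179 shallower cells of the B-ALL environment and none of the PBS control. A Klf1 UMI was then seen in 4.37% (3.85 to 4.93%) of B-ALL environment cells and 14.1% (13.2 to 14.97%) of PBS control cells, against 10.4% and 25.8% without thinning. Gata1 was seen in 9.70% and 14.5% of cells, and Gata2 in 32.0% and 32.9%. In early erythroid-megakaryocyte-like cells Klf1 was seen in 20.3% (16.8 to 24.3%) of 467 B-ALL environment cells and 34.4% (31.2 to 37.7%) of 837 PBS control cells. Neutrophil progenitor-like cells, which should lack Klf1, gave 0.980% and 1.52%, with median depths of 20534 and 16050.5 UMIs before thinning. Gata1 was seen in 36.4% and 35.0% of early erythroid-megakaryocyte-like cells. Among those with a Gata1 UMI, 18.8% (13.3 to 25.5%) in the B-ALL environment and 36.5% (31.0 to 42.3%) in the PBS control also had a Klf1 UMI, and among those without one 21.2% and 33.3% did, with overlapping intervals in each group. In erythroid-like cells Gata2 was seen in 52.1% (44.8 to 59.3%) of 192 B-ALL environment cells and 36.3% (33.0 to 39.7%) of 829 PBS control cells. In megakaryocyte-like cells Gfi1b was seen in 26.9% (24.0 to 29.9%) of 911 and 20.95% (17.4 to 24.9%) of 482 cells.

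Genes with the most similar pattern were sought over 26 sums, of 13 classes in both groups, by Pearson's r of log2(CPM + 10) among 8875 genes. These sums share libraries and marker classes, so the values are a description. Gata1 was closest to Icam4 (r = 0.972), which encodes a red cell adhesion molecule, Mfsd2b (0.952), a sphingosine phosphate exporter of red cells and platelets, and Scyl2 (0.941). Gata2 was closest to Gse1 (0.978), Smim5 (0.958) and Slc18a2 (0.942), a vesicular monoamine transporter that mast cells also use. Klf1 was closest to Epdr1 (0.978), 1700006J14Rik (0.956) and Ces2g (0.955). Zfpm1 was closest to Tom1l1 (0.968), Hemgn (0.967), a nuclear protein of blood progenitors, and Tal1 (0.959). Gfi1b was closest to Sept8 (0.961), Tmem64 (0.952) and Zfpm1 (0.949), and Tal1 to Hemgn (0.965), Zfpm1 (0.959) and Vamp5 (0.954). Between the factors, Gata1 and Klf1 had an r of 0.917 and Gata2 and Klf1 of 0.664, the lowest of the pairs.

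Genes that work with the 6 factors were read from lists of partners, corepressors, other regulators and targets. Of 16 partners of their complexes, 2 were at least 1.5-fold higher over all cells and none lower, beside 3.94% and 2.79% of all genes, with a median log2 fold of 0.07, beside -0.02 for all genes. They were the ETS factors Fli1, at 164 and 103 CPM (log2 fold 0.66), and Erg, at 90.8 and 58.0 CPM (0.65). At equal class shares neither passed, with Fli1 at 0.30 and Erg at 0.27, and in megakaryocyte-like cells Fli1 was at -0.28 (-0.36 to -0.20). Ldb1, the bridging protein of the TAL1 complex, was at -0.40, and Cbfa2t3, its corepressor ETO2, at 0.40. Of 17 corepressors of GFI1B and FOG1 none passed, with a median of 0.07, and Phf21a was at 0.46, Rcor1 at -0.36, Mbd2 at -0.32 and Kdm1a, the demethylase LSD1, at 0.26. Of 18 other erythroid and megakaryocyte regulators 4 were higher, among them Sox6 at 1.40, Cited2 at 0.86 and Meis1 at 0.76, and none lower, with a median of -0.07. Of 9 myeloid and lymphoid factors that oppose them, 2 were higher and 1 lower, with a median of -0.27. Among these were Ets1 at 0.95, Cebpb at 0.71, Cebpe, a factor of granulocyte maturation, at -0.89 and Ikzf1 at -0.55.

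Target genes were counted in the same way, and over all cells 3.94% of 8781 genes were higher and 2.79% lower. Of 25 erythroid targets 5 were higher and 11 lower over all cells, with a median log2 fold of -0.38, and -0.08 at equal class shares. This list also holds Ermap, Tspo2 and Sphk1, known from earlier results to be among the lowest folds, so its count of lower genes is no independent evidence. The sphingosine kinase gene Sphk1 was at 1.70 and 20.4 CPM (log2 fold -3.58). The globin genes Hba-a2 at 4.27, Hba-a1 at 4.13 and Hbb-bs at 3.45 rested on few cells, and Hba-a1 and Hba-a2 are near-identical copies between which UMIs could be split. Of 16 megakaryocyte targets 10 were higher and none lower, with a median of 0.64, and at equal class shares 5 were higher and 1 lower, with a median of 0.32. They included Mmrn1 at 1.82, Selp, which encodes P-selectin, at 1.73, and Cavin2 at 1.37. Within megakaryocyte-like cells none of 20 such targets was higher and 9 were lower, with a median of -0.36, beside 4.56% of all genes higher and 5.67% lower. In early erythroid-megakaryocyte-like cells 11 of 14 were higher and none lower, with a median of 1.14, beside 7.31% of all genes higher and 6.88% lower. Of 7 basophil and mast cell targets 1 was higher and 4 lower over all cells, with a median of -0.68. The receptor genes Il1rl1, at -1.41, and Csf2rb, at 1.13, had the largest folds, and Cpa3, a mast cell protease, was at -0.98 and Hdc, the enzyme of histamine synthesis, at -0.84. Within basophil and mast cell-like cells 4 of 10 were higher and 1 lower, with a median of 0.20, beside 6.73% of all genes higher and 4.85% lower. Several targets also served to name the classes, so their values within classes are no independent evidence.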

How the data were processed

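The authors deposited 1 matrix of raw UMI counts per gene and cell, with a cell table of total counts, genes detected and UMAP coordinates, which are scores without a unit. Cell Ranger 4 and Seurat 4.0.1 and the mm10 build are named, per the submitters' processing notes. Sums of the deposited counts equalled the deposited totals in 100% of cells. The filters on cells and genes, and the treatment of antisense reads, are not given in the sources used here. The cell prefix tm was taken to mean the tumor environment.

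The members, gene lists and alternatives were chosen with earlier results of these data known. Cells were clustered by the Leiden method (leidenalg 0.10.2, igraph 0.11.9) on 30 neighbours of the authors' map at resolution 0.3, with finer clusters at 0.6, and seed 1. A name needed a mean log2 enrichment of at least 0.5 with 10 CPM added, 3 markers in 10% of cells, and a marker of its own among the 10 leading genes, with no other list having more. The alternative gave each cell the list with the highest enrichment, if that reached a log2 of 1. It left 1270 B-ALL environment and 1274 PBS control cells without a name, which counted as a class at equal class shares. In 37.3% of cells (4385) the highest list led the next by less than 0.5 log2. Scrublet (scanpy 1.11.5, anndata 0.12.19, scikit-image 0.26.0) called 3 B-ALL environment and 6 PBS control cells, too few for its calls to be used, and no cell was removed. Whether doublets had been removed before deposit is not given in the sources used here.

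The cells of a class and group were pooled by adding their UMIs, and levels were normalised with the TMM factors of edgeR 4.0.16 (R 4.3.3, genes kept by filterByExpr). Folds have exact conditional intervals, levels exact Poisson and shares exact Clopper-Pearson intervals (scipy 1.17.1), all at 95%, for counting error only. Intervals at equal class shares use a normal approximation. Calls were a fold of 1.5 among genes averaging 10 CPM or more, in classes with at least 30 cells of both groups. DESeq2 1.42.0 gave size factors only. No edgeR or DESeq2 test was run because each group is 1 sample. The scripts were tested on simulated counts. All 6 members were named, with the 3 most similar genes of each and up to 4 genes per list by size of fold, of which 2 are not reported here. The bins along marker levels were added after the data were seen. The scripts ran under python 3.11.15 with numpy 2.4.6, pandas 2.3.3, scikit-learn 1.9.0 and matplotlib 3.10.9.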

Additional observations from a re-analysis of the deposited data

Results flagged for a closer look

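Each of 5 factors was higher in some named classes of the B-ALL environment and lower in others, beyond counting error. These differences between classes were not tested. The log2 fold of Gata1 was 0.49 in basophil and mast cell-like cells and -0.35 in megakaryocyte-like cells. That of Gata2 was 0.66 in erythroid-like and -0.83 in monocyte progenitor-like cells. Zfpm1 was at 0.47 in lymphoid-primed progenitor-like and -0.26 in megakaryocyte-like cells. Gfi1b was at 0.84 in multipotent progenitor-like and -0.26 in erythroid-like cells, and Tal1 at 0.48 in multipotent progenitor-like and -0.39 in megakaryocyte-like cells. Klf1 was not higher in any named class beyond counting error. With cell-by-cell classes Gata2 and Gfi1b in erythroid-like cells were at 0.22 and -0.14, and Gata1 in megakaryocyte-like cells was at -0.15.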

How the results depend on the processing

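No paired analysis was possible because the cells carry no replicate number, and for the same reason neither the replicate block nor leaving out each replicate was run. Scaling by UMI totals, by DESeq2 size factors or by TMM over all genes, leaving out B-ALL environment cells shallower than any PBS control cell, and leaving out globin-rich or Igkc-rich cells kept all 14 main values and the 78 folds within classes inside their intervals or within 1.5 times. Without a filter on low genes the counts past a fold of 1.5 over all cells were 1759 higher and 1128 lower, against 346 and 245, since more genes were counted. Cell-by-cell classes moved several values, and the cause was not tested. At equal class shares they gave Gata1 0.13 (reversed), Gata2 0.068, Klf1 -0.30 and Zfpm1 0.32, and a Gata2 to Gata1 ratio of 1.11 in erythroid-like cells of the B-ALL environment. They gave no Gata2 to Gata1 ratio or Gata1 fold in multipotent progenitor-like cells of the PBS control, where no Gata1 UMI remained. They reversed Zfpm1 (-0.44) and Gfi1b (-0.69) in HSC-like cells and Gata2 (0.24) in early erythroid-megakaryocyte-like cells. Finer cluster 0 alone also reversed Gata2 there (0.20), and finer cluster 10 alone reversed Zfpm1 in HSC-like cells (-0.55). Without the highest 5% of Scrublet scores, Gata2 in unnamed cluster 12 was reversed, at 0.50 against -0.42 with all cells. With the shorter erythroid list, chosen after seeing the data, Gata2 in bin 4 was at 0.0097. Taking all sorted cells at the same erythroid bin limits moved 10 bin values outside their intervals and kept 20 inside. Thinning lowered the share of cells with a UMI for every factor in both groups. Klf1 folds were least certain where its level was taken as background, with 6 to 14 UMIs per stem or multipotent class of the B-ALL environment.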
